A study of Mus musculus with 44 samples.

Results

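The levels of 10 genes of NAD metabolism were followed through the day in kidneys of mice with and without the clock gene Arntl. They were chosen by name as enzymes that make or modify NAD and as sirtuins: Nampt, Nmrk1, Nmnat1, Nmnat3, Naprt, Qprt, Nadk, Nnt, Sirt1 and Sirt3. These 10 genes are a small set among 24733 genes with any value above 0 and among the 12874 that averaged 1 TPM or more and were tested. TPM is the abundance of a transcript, corrected for its length and scaled to the same total in every library. All 10 members passed that filter, on the mean over every library.

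Polyadenylated RNA was measured in 24 kidney libraries from mice of the 129SV strain, aged 8-12 weeks after birth and fed only at night. Of these, 12 were WT and 12 carried a knockout (KO) of Arntl, the gene for the clock activator BMAL1, which the column names of the deposited table call SV129 and BmalKO. Kidneys were sampled at zeitgeber times (ZT, hours after lights on) 0, 4, 8, 12, 16 and 20, so 12 groups had 2 libraries, A and B, apiece. The labels give no promoter or cell type for the knockout and no sex, and they do not say that libraries A and B came from separate animals, so p-values measure the spread between these libraries.

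NAD carries electrons in metabolism and is also used up by enzymes that cleave it, the sirtuins and poly(ADP-ribose) polymerases among them. Cells remake it from nicotinamide through Nampt, from nicotinamide riboside through Nmrk1, from nicotinic acid through Naprt, and from tryptophan through Qprt, and the Nmnat enzymes form the dinucleotide from the mononucleotide. Nadk phosphorylates NAD to NADP, and Nnt in the inner mitochondrial membrane passes electrons between the NADH and NADPH pools. Nampt is known as a gene that the clock activators BMAL1 and CLOCK switch on through E-boxes, and Sirt1, a nuclear deacetylase that needs NAD, acts back on clock proteins. Kidney proximal tubule is known for high use of NAD and for making it from tryptophan.

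The promoter sequences of the 3 genes that were lower in KO and of Sirt1 are shown because an E-box is the element that BMAL1 is known to bind. They are the 250 bases before the annotated start, 5′ to 3′ on the gene's strand, from RefSeq on build GRCm38.p6, with CACGTG matches in capitals. The windows are chr12:32820085-32820334 for Nampt (plus strand), chr19:18631766-18632015 for Nmrk1 (plus strand), chr4:155563565-155563814 for the second of 2 Nadk starts (plus strand) and chr10:63339036-63339285 for Sirt1 (minus strand).
Nampt: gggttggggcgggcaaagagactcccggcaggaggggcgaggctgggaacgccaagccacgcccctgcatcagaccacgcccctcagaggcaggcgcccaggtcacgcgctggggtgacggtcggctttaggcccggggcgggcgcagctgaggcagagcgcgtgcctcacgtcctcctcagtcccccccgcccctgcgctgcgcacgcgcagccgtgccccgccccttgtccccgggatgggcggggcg
Nmrk1: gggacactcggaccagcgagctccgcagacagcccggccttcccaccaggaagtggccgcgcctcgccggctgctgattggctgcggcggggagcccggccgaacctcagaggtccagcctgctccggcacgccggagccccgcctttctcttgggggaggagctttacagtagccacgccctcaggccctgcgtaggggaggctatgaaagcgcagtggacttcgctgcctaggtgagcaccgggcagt
Nadk: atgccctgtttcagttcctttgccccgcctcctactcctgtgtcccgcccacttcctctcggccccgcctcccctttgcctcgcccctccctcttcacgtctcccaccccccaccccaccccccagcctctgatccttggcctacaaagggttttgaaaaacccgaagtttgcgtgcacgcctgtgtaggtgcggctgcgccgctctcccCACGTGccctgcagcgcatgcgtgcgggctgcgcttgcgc
Sirt1: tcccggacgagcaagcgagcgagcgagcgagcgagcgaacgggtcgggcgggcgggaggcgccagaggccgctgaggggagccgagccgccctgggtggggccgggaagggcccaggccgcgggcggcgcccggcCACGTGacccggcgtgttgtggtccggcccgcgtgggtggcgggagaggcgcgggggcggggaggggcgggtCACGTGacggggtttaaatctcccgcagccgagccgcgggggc
Both strands of the whole table window (250 bases before to 50 after the start) were searched for CACGTG, the E-box, for CACGTT, the E′-box, for TAGGTCA, the core of the REV-ERB and ROR element, for TTANGTAA, the D-box core, and for TGACGTC, the core of the cAMP response element. Nadk held 1 CACGTG, whose first base lay at -40 from the start, and Sirt1 held 2, at -115 and -43. No other match was found in the 11 windows of the 8 members with an entry (Nampt, Nmrk1, Nmnat1, Nmnat3, Qprt, Nadk, Sirt1 and Sirt3), the first Nadk window included. Of all 32851 windows in the table, 7.15% held CACGTG, 4.68% CACGTT, 2.61% TAGGTCA, 2.32% TTANGTAA and 3.21% TGACGTC. The Nampt stretch was 75.6% G and C and the Sirt1 stretch 79.2%, where the median over all windows was 52.4%. Of the 2 Nadk windows the one with a match is printed, and Sirt1, the other gene with matches, was not called between genotypes. The matches are a description of letters in a short window and show no binding.

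A pair of libraries stood apart from the rest. The library labelled KO ZT4 A had 1.03 TPM of Cry1 and 23.8 TPM of Nr1d1, where the other 11 KO libraries had 11.5 to 17.8 TPM of Cry1 and 1.23 to 3.46 TPM of Nr1d1, and the WT libraries 0.551 to 6.64 and 1.42 to 44.3 TPM. Arntl itself, the targeted gene, ranged from 0.295 to 12.9 TPM over the day in WT and from 4.19 to 6.20 TPM in those 11 KO libraries, and was at 6.28 TPM in the library labelled KO ZT4 A, so its level did not check that label. The library labelled KO ZT12 A had a summed level of 3.31 TPM over 4 Y-linked genes, against 48.0 to 57.8 TPM in WT. In the library labelled KO ZT4 A the sum was 53.4 TPM. The remaining KO libraries had these 4 genes near WT levels or above. Ddx3y was at 13.3 to 17.5 TPM there (WT 11.7 to 15.7) and Uty at 5.85 to 7.68 TPM (WT 6.08 to 7.27). Kdm5d was at 4.72 to 5.42 TPM (WT 3.74 to 4.63) and Eif2s3y at 26.8 to 38.8 TPM (WT 25.3 to 31.2). Every limma test was also run without the libraries labelled KO ZT4 A and KO ZT12 A. Mean levels, group order, transcript shares and correlations were computed with all libraries only. Other RNA moved with genotype too. Male-high kidney genes summed to 32311 to 43075 TPM in WT and 10501 to 31879 in the 11 KO libraries (5 of 5 lower in KO), and female-high genes to 3.65 to 22.4 and 93.7 to 165 TPM (2 of 2 higher), with 37555 and 6.99 TPM in the library labelled KO ZT4 A. Proximal tubule markers, which define the main tissue, were high in both genotypes, at 3385 to 3885 TPM in WT and 2950 to 3875 TPM in the 11 KO libraries, with 2 of 6 called higher and 1 lower. Distal convoluted tubule (2 of 2), principal cell (3 of 3), intercalated cell (3 of 3) and podocyte markers (3 of 3) were higher in KO, where 50.9% of all genes were called higher, with 1 of 2 for distal convoluted tubule under median-of-ratios scaling. Of the thick ascending limb markers Slc12a1 and Cldn16 were higher and Umod lower. The podocyte sum stood at 50.1 to 70.9 TPM in WT and 68.3 to 99.4 TPM in those KO libraries, and both its highest value and the lowest male-high sum were of the library labelled KO ZT12 A. Adrenal markers stayed at 0.714 to 1.45 TPM in sum, and no marker was at 0 in all libraries. Other sums were less even. Fat markers summed to 0.108 to 9.41 TPM in WT and 0.0726 to 10.5 TPM in the 11 KO libraries, highest in KO ZT12 A. Stroma markers summed to 20.8 to 41.3 and 17.0 to 72.2 TPM, and liver markers to 18.4 to 73.9 and 70.1 to 120 TPM. The mitochondrial genome's transcripts held 41.1% ± 1.33 of the gene TPM in WT and 38.3% ± 2.00 in KO (SD over 12 libraries each). The part of any of these in the results on NAD genes was not tested. In whole kidney, fewer cells of a type and less RNA per cell cannot be told apart.

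The members differed widely in level. The mean over the 24 libraries was 60.4 TPM for Nadk, 53.9 for Sirt3, 42.9 for Nmrk1, 37.4 for Nnt, 32.5 for Qprt, 29.3 for Nampt, 16 for Naprt, 9.49 for Nmnat3, 8.44 for Nmnat1 and 6.61 for Sirt1. The kinase that makes NADP and the mitochondrial sirtuin thus stood highest, and the nuclear Nmnat1 and Sirt1 lowest. TPM keeps no sequencing depth, so no counting interval could be given for any of these levels.

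**Figure D1:**
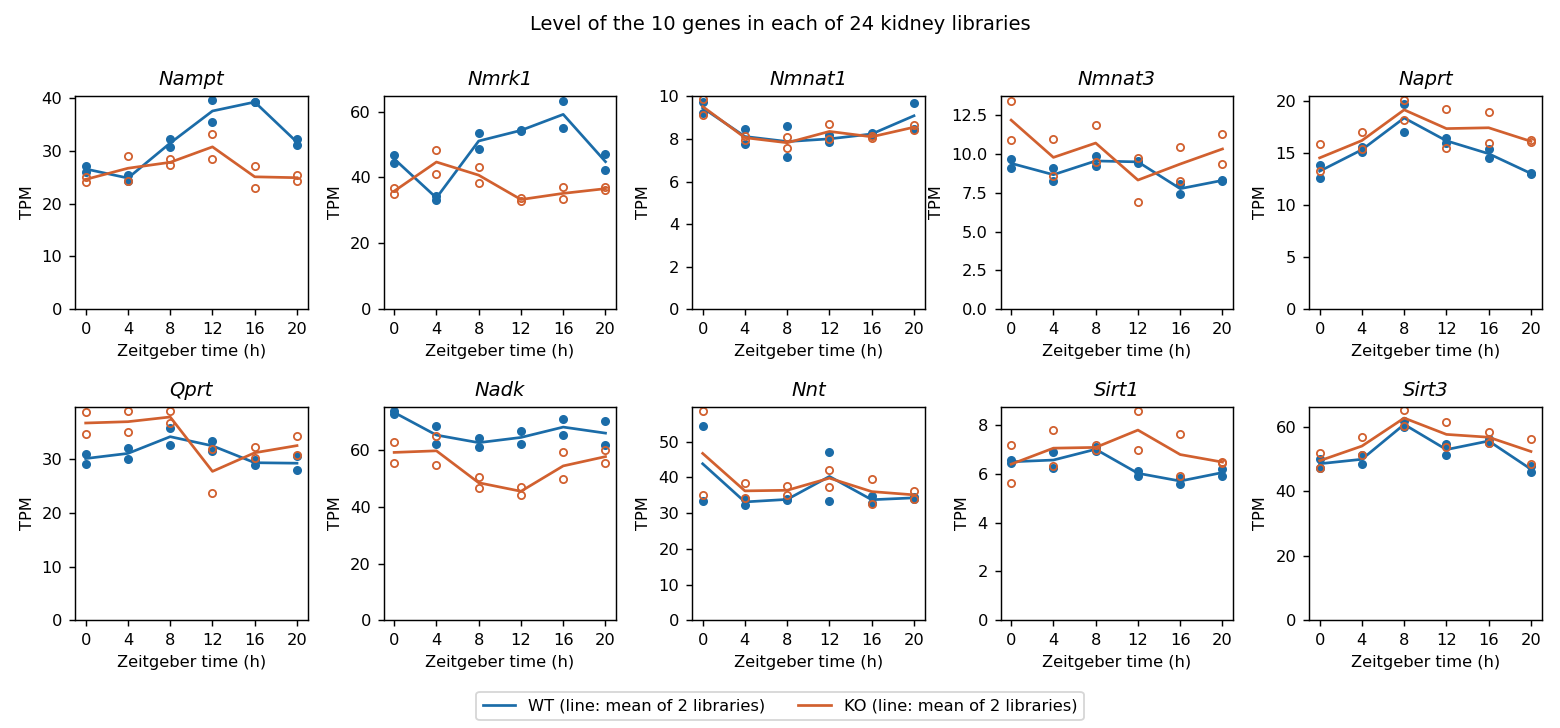
TPM (y axis, from 0) of each of the 10 genes against zeitgeber time in hours (x axis), with filled points for WT libraries, open points for KO libraries and lines through the means of 2 libraries. Nampt and Nmrk1 rose to 39.3 and 59.1 TPM at ZT16 in WT and stood at 25.1 and 35.2 TPM at that time in KO, and Nadk was lower in KO at all 6 times.

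Over all times, 3 of the 10 genes were lower in KO and 3 were higher. The lower ones were Nampt and Nmrk1, the entry enzymes of both salvage routes, and Nadk. Those higher were Nmnat3, which makes NAD and is known from mitochondria, Naprt and Sirt3, each by less than 0.18 on the log2 scale. The test was limma on log2(TPM + 0.1) with time in the model, and calls were made at a Benjamini-Hochberg adjusted p under 0.05 over the 12874 genes. Of all genes 60.9% were called (50.9% higher and 10% lower in KO), so the 6 called members are a share near the background, and 7 members had an unadjusted p under 0.05. The median difference of all genes was 0.15 on the log2 scale and that of the members 0.08. Under median-of-ratios scaling, which lines up the typical gene between libraries, the median of all genes became 0.00 and none of the members was called higher, while 4 were called lower: Nampt, Nmrk1, Nadk and Nmnat1. With that scaling 2844 of the 12874 genes were called higher and 2856 lower, so more genes were called lower than on the deposited scale. Relative to the median of all genes, Nampt, Nmrk1 and Nadk differed by -0.39, -0.48 and -0.45. With the mitochondrial genome's transcripts left out of the total, the median of all genes was 0.08 and the 3 lower members alone were called. Over all genes 4581 were then higher and 1678 lower. Without the libraries labelled KO ZT4 A and KO ZT12 A, 4 members were called higher, Qprt among them, and the same 3 lower. Over all genes 6558 were higher and 1331 lower without these libraries. Of the called genes, 83.6% were higher in KO on the deposited scale, 49.9% under median-of-ratios scaling and 73.2% without the mitochondrial genome's transcripts.

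**Figure D2:**
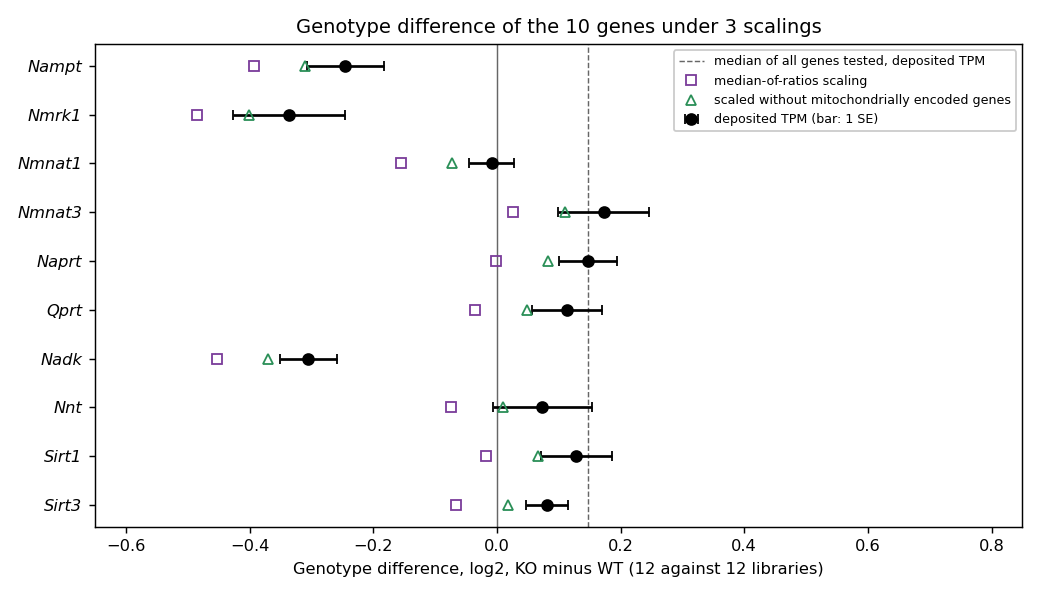
Genotype difference (x axis, log2, KO minus WT, 12 against 12 libraries) of each gene on the deposited scale with 1 SE, and under 2 other scalings; the dashed line is the median of all genes tested, 0.15. Nampt, Nmrk1 and Nadk lie below 0 under all 3 scalings, while Naprt, Qprt, Nnt, Sirt1 and Sirt3 change side.

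Nampt, the rate-limiting enzyme that turns nicotinamide into the mononucleotide, lies at chr12:32819545-32853349 on the plus strand of build GRCm38 (GENCODE M21, as are all gene positions below). In WT it was lowest at ZT4, at 24.3 and 25.4 TPM, after 27.2 and 26.0 TPM at ZT0. It rose through 30.8 and 32.2 TPM at ZT8 to 39.6 and 35.5 TPM at ZT12 and 39.2 and 39.3 TPM at ZT16, and stood at 32.2 and 31.1 TPM at ZT20. All 4 WT libraries from ZT12 and ZT16 were above every KO library. In KO it was at 24.1 and 25.1 TPM at ZT0, 24.3 and 29.1 TPM at ZT4 and 28.4 and 27.2 TPM at ZT8. The KO libraries then reached 33.1 and 28.4 TPM at ZT12 and were at 22.9 and 27.2 TPM at ZT16 and 24.3 and 25.5 TPM at ZT20. The genotypes did not overlap at 5 of the 6 times, the exception being ZT4. The share of all genes without overlap at a time was not counted. At ZT4 the difference was 0.10 with KO as the higher one. It turned to -0.03 without KO ZT4 B and to -0.04 under median-of-ratios scaling, with no call in any of these.

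Averaged over time, Nampt was at 31.9 ± 5.57 TPM (SD, n = 12) in WT and 26.6 ± 2.85 TPM (SD, n = 12) in KO, a log2 difference of -0.25 ± 0.06 (SE; limma adjusted p = 0.00228). It was lower in KO at 5 of 6 times and in all 34 alternative analyses, with differences from -0.39 to -0.21. At single times the call was made at ZT12 (-0.29, adjusted p = 0.0333) and ZT16 (-0.65, adjusted p = 0.0012), which is a fold of 0.638 at ZT16. The difference at ZT20, -0.34, was larger than that at ZT12 but missed the threshold (adjusted p = 0.0654), where 3.72% of all genes were called. It was called at ZT20 under median-of-ratios scaling (0.016) and with the mitochondrial genome's transcripts left out of the total (0.0357). The ZT12 call was lost without KO ZT12 B (adjusted p = 0.225) or without WT ZT12 A (adjusted p = 0.209) and without the filter on low values (adjusted p = 0.0557). At ZT12 38.2% of all genes were called and at ZT16 21.5%. These 4914 and 2766 genes depended on single libraries. At ZT12 the number was 2130 without KO ZT12 A, 2563 without WT ZT12 B and 3161 without WT ZT12 A, and at ZT16 it was 569 without WT ZT16 A, 1247 without KO ZT16 A and 1537 without WT ZT16 B.

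Nmrk1, the kinase of nicotinamide riboside (chr19:18631950-18652428, plus strand), moved through the day much as Nampt did in WT. In WT it stood at 44.3 and 46.9 TPM at ZT0, 33.1 and 34.5 TPM at ZT4 and 53.6 and 48.5 TPM at ZT8. It then reached 54.2 and 54.3 TPM at ZT12 and 63.3 and 54.9 TPM at ZT16 before 42.4 and 47.1 TPM at ZT20. The trough at ZT4 lay below every other WT library. In KO it was at 35.0 and 36.6 TPM at ZT0, 41.1 and 48.2 TPM at ZT4 and 38.2 and 43.1 TPM at ZT8. The later KO levels were 32.9 and 33.6 TPM at ZT12, 33.3 and 37.0 TPM at ZT16, and 36.2 and 37.0 TPM at ZT20. The genotypes did not overlap at any time, and KO was the higher one at ZT4 alone. How many of all genes were without overlap was not counted.

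The mean level of Nmrk1 was 48.1 ± 8.76 TPM (SD, n = 12) in WT and 37.7 ± 4.49 TPM (SD, n = 12) in KO, a log2 difference of -0.34 ± 0.09 (SE; limma adjusted p = 0.0036) that was called in all 34 alternatives. By time, Nmrk1 was lower at ZT0 (-0.35, adjusted p = 0.0293), ZT8 (-0.33, adjusted p = 0.0338), ZT12 (-0.70, adjusted p = 0.000222) and ZT16 (-0.75, adjusted p = 0.000458). The ZT0 call was lost without any 1 of the 4 libraries of ZT0 (adjusted p 0.0724 to 0.168), and the ZT8 call without KO ZT8 A, WT ZT8 A or WT ZT8 B (0.0696 to 0.282) and with no filter on low values (0.0554). The calls at ZT12 and ZT16 held in all 33 alternatives. At ZT4 the difference was 0.40 ± 0.10 (SE; adjusted p = 0.378) and no gene of all tested was called there, 0% of 12874, with 1637 genes at an unadjusted p under 0.05. Without the libraries labelled KO ZT4 A and KO ZT12 A, which leaves 1 KO library at ZT4 assumed to vary as the other groups do, it was 0.51 (adjusted p = 0.0132), and 1894 of all genes were called at ZT4 in that setting. Without KO ZT4 A alone 1488 genes were called at ZT4. The background was 13.4% of genes at ZT0 and 14.6% at ZT8, 1731 and 1877 genes. The first number fell to between 1 and 792 without any 1 of the 4 libraries of ZT0, and the other was 74 without KO ZT8 A, 386 without WT ZT8 A and 495 without WT ZT8 B.

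**Figure D3:**
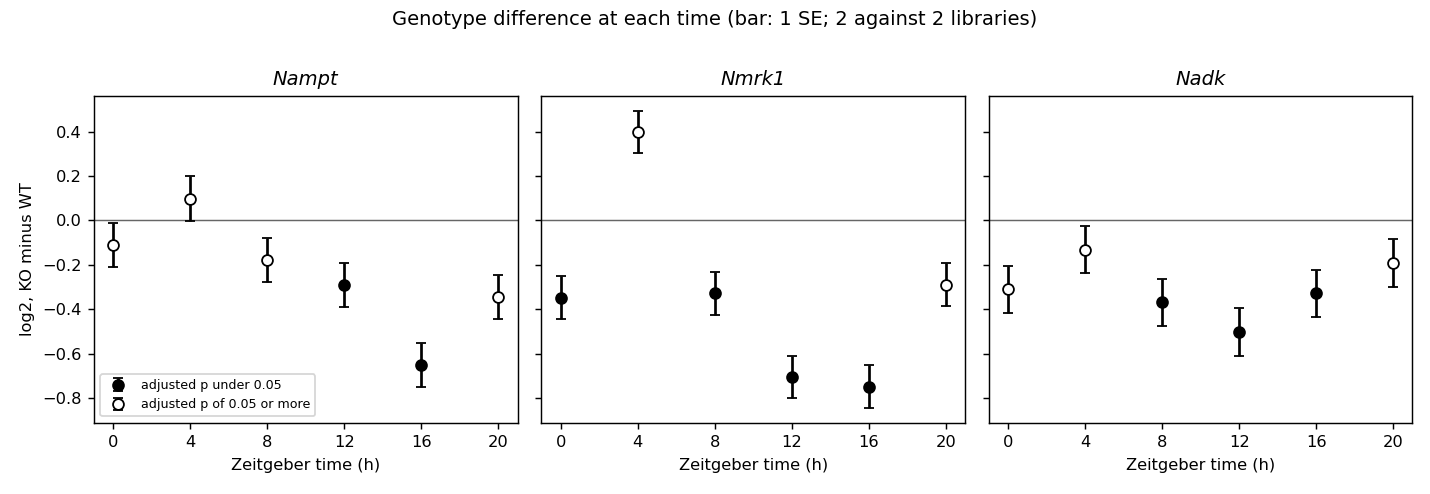
Genotype difference (y axis, log2, KO minus WT, with 1 SE) at each zeitgeber time in hours (x axis) for the 3 genes lower in KO, filled where the adjusted p was under 0.05. The differences of Nampt and Nmrk1 run from 0.10 and 0.40 at ZT4 (the first with a sign that turned under another scaling) to -0.65 and -0.75 at ZT16, and that of Nadk was largest at ZT12, at -0.50.

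Nadk, the cytosolic NAD kinase (chr4:155562378-155591001, plus strand), was lower in KO throughout. In WT it was at 72.7 and 73.7 TPM at ZT0, 68.3 and 62.2 TPM at ZT4 and 61.0 and 64.2 TPM at ZT8. At ZT12 it was at 66.6 and 62.2 TPM, at ZT16 at 70.7 and 65.4 TPM and at ZT20 at 70.1 and 61.8 TPM. Of the 12 KO libraries, 10 were below every WT library, and how many of all genes were so placed was not counted. The KO levels were 55.4 and 62.9 TPM at ZT0, 64.8 and 54.7 TPM at ZT4 and 46.6 and 50.3 TPM at ZT8. They were 46.9 and 44.1 TPM at ZT12, 59.2 and 49.6 TPM at ZT16 and 55.5 and 59.9 TPM at ZT20. The 2 KO libraries inside the WT range were ZT0 B and the library labelled KO ZT4 A. The mean was 66.6 ± 4.48 TPM (SD, n = 12) in WT and 54.1 ± 6.73 TPM (SD, n = 12) in KO, a log2 difference of -0.31 ± 0.05 (SE; limma adjusted p = 2.04e-05) called in all 34 alternatives. By time it was lower at ZT8 (-0.37, adjusted p = 0.031), ZT12 (-0.50, adjusted p = 0.00283) and ZT16 (-0.33, adjusted p = 0.0396). The ZT8 call was lost without KO ZT8 A, WT ZT8 A or WT ZT8 B (adjusted p 0.0996 to 0.224), and the ZT16 call without KO ZT16 B, WT ZT16 A, WT ZT16 B, WT ZT0 A or WT ZT0 B (0.051 to 0.263). Without the filter on low values the adjusted p was 0.0524 at ZT8 and 0.0665 at ZT16. No member was called at ZT20, where 3.72% of all genes (479) were and 3 members had an unadjusted p under 0.05. That number was 1 to 42 without any 1 of the 4 libraries of ZT20, 302 to 304 without a WT library of ZT0 or ZT8, and 1102 and 1103 without KO ZT4 A and KO ZT4 B.

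The 3 members called higher had small differences that depended on the scaling. Nmnat3 (chr9:98287435-98420438, plus strand) was at 8.87 ± 0.763 TPM (SD, n = 12) in WT and 10.1 ± 1.76 TPM in KO (0.17 ± 0.07 SE; limma adjusted p = 0.0483). Its highest library was KO ZT0 A, at 13.4 TPM, and its lowest was KO ZT12 A, at 6.93 TPM. The call held in 12 of 34 alternatives and was kept when KO ZT12 A, KO ZT16 B, KO ZT20 B, KO ZT4 A, KO ZT8 A, WT ZT12 A, WT ZT12 B or WT ZT4 A was left out but lost without any 1 of the other 16 libraries (adjusted p 0.0528 to 0.0933). Naprt, the first enzyme of the route from nicotinic acid (chr15:75890956-75894481, minus strand), was at 15.2 ± 2.00 TPM (SD, n = 12) in WT and 16.8 ± 1.97 TPM in KO (0.15 ± 0.05 SE; adjusted p = 0.0107), higher at 6 of 6 times. Sirt3, the main deacetylase of mitochondria (chr7:140863666-140882309, minus strand), was at 52.4 ± 5.06 and 55.5 ± 5.34 TPM (SD, n = 12 each; 0.08 ± 0.03 SE; adjusted p = 0.0432), and its call was lost without any 1 of 13 libraries, the B libraries of all 6 KO times, WT ZT0 B, WT ZT4 B, WT ZT8 A, WT ZT12 B, WT ZT16 B, WT ZT20 A and WT ZT20 B (0.0553 to 0.0856). Under median-of-ratios scaling the differences became 0.03, -0.00078 and -0.07, and none of these members was called.

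The other members did not pass the genotype test. Nmnat1, the nuclear enzyme that completes NAD (chr4:149467572-149485202, minus strand), was at 8.47 ± 0.767 TPM (SD, n = 12) in WT and 8.41 ± 0.630 TPM in KO, with a difference of -0.01 ± 0.04 (SE; limma adjusted p = 0.848), and it was called lower under median-of-ratios scaling (-0.16, adjusted p = 0.00357). Qprt, which forms the mononucleotide from quinolinate (chr7:127107114-127122226, minus strand), was at 31.1 ± 2.19 and 33.9 ± 4.48 TPM (adjusted p = 0.0891). Its lowest library was the one labelled KO ZT12 A, at 23.7 TPM, and without this and the library labelled KO ZT4 A the difference was 0.16 (adjusted p = 0.00213). Sirt1 (chr10:63319005-63381704, minus strand) was at 6.30 ± 0.478 and 6.92 ± 0.833 TPM (adjusted p = 0.0597), with its highest library also KO ZT12 A, at 8.58 TPM. Nnt (chr13:119335448-119408997, minus strand) was at 36.5 ± 6.85 and 38.4 ± 6.85 TPM (adjusted p = 0.44).

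Nnt was uneven between libraries of the same group. It stood at 54.3 TPM in WT ZT0 A and 33.3 TPM in WT ZT0 B, at 47.2 TPM in WT ZT12 B and 33.3 TPM in WT ZT12 A, and at 58.4 TPM in KO ZT0 B and 35.0 TPM in KO ZT0 A. The median was 33.9 TPM in WT and 36.8 TPM in KO. The excess lay in 1 transcript, Nnt-202, at 47.3 TPM in WT ZT0 A, 37.9 TPM in WT ZT12 B and 47.5 TPM in KO ZT0 B, against 20.5 to 29.2 TPM in all other libraries. The second transcript, Nnt-201, stayed between 6.30 and 12.9 TPM in all libraries.

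In WT kidney 3 of the 10 members had a 24-hour rhythm, against 13.7% of all genes. Rhythm was tested as the F statistic of a cosine and sine fitted per genotype, and the size is the fitted peak minus trough on the log2 scale. Nampt had a peak-to-trough of 0.67 ± 0.08 (SE), a fold of 1.59, with its peak at ZT 14.3 ± 0.45 h (adjusted p = 5.02e-05). Nmrk1 had 0.61 ± 0.12 with its peak at 14.4 ± 0.755 h (adjusted p = 0.0055). These enzymes of separate salvage routes thus peaked within 1 standard error of each other, early in the night. Naprt had 0.46 ± 0.10 and an earlier peak, at 9.23 ± 0.796 h (adjusted p = 0.0083), with its WT pair lowest at ZT0 and ZT20 (12.6 to 13.9 TPM) and highest at ZT8 (19.7 and 17.0 TPM).

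The rhythm calls of Nampt and Nmrk1 in WT held in all 35 alternatives, and that of Naprt in 34, the exception being time as a 6-level factor (adjusted p = 0.101). Sirt3 had a peak-to-trough of 0.29 ± 0.08 in WT and 0.28 ± 0.08 in KO with peaks at 10.3 and 10.5 h, and missed the threshold in both (adjusted p = 0.0532 and 0.108). Its WT call was made in 9 of 35 alternatives. Both Sirt3 and Qprt passed in WT without the libraries labelled KO ZT4 A and KO ZT12 A (adjusted p = 0.0264 and 0.0462). That makes 5 members, where 2559 of all 12874 genes passed in WT. In all, 5 members had an unadjusted p under 0.05 for rhythm in WT and 6 in KO.

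In KO kidney 1 member, Nadk, passed the rhythm test, against 3.64% of all genes. Its peak-to-trough was 0.39 ± 0.09 (SE) with a peak at 23.3 ± 0.86 h (limma adjusted p = 0.0352), and in WT it was 0.15 ± 0.09 (adjusted p = 0.447). The call was lost without KO ZT0 B, KO ZT8 A, KO ZT8 B, KO ZT12 A, KO ZT12 B or KO ZT20 B (adjusted p 0.0568 to 0.105), and with KO libraries fitted alone (0.238). The difference in rhythm of Nadk between genotypes was not called (adjusted p = 0.522). Nampt and Nmrk1 had peak-to-trough values of 0.28 ± 0.08 and 0.31 ± 0.12 in KO (adjusted p = 0.1 and 0.243). Without the libraries labelled KO ZT4 A and KO ZT12 A, 4 members passed in KO: Nadk (adjusted p = 0.0449), Naprt (0.0368), Qprt (0.0183) and Sirt3 (0.0443). Over all genes 611 of 12874 passed in KO in that setting.

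**Figure D4:**
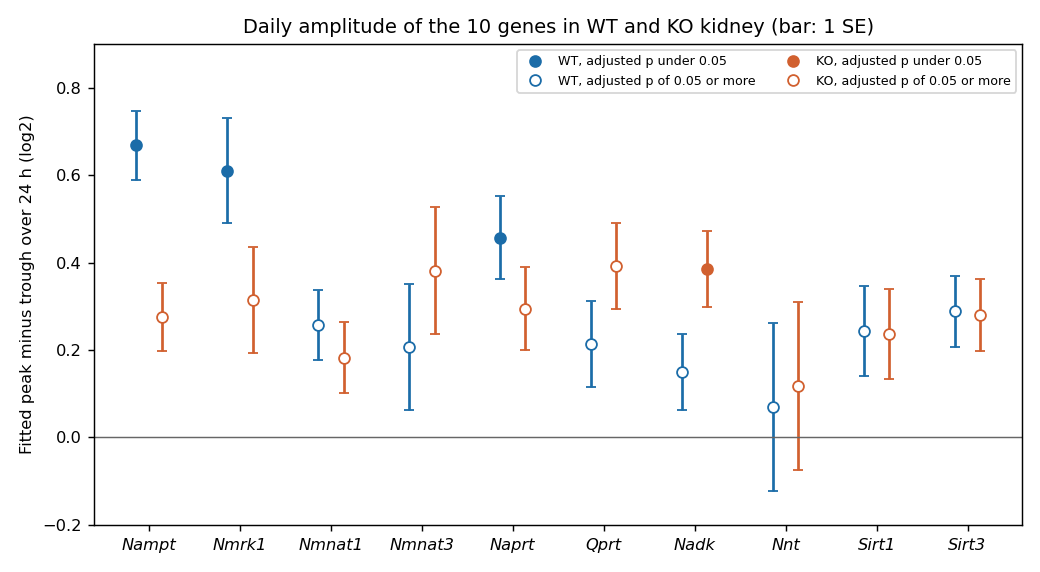
Fitted peak minus trough over 24 h (y axis, log2) of the 10 genes in WT and KO kidney with 1 SE, filled where the adjusted p for rhythm was under 0.05. Nampt and Nmrk1 have the highest values in WT, 0.67 and 0.61, and lie at 0.28 and 0.31 in KO.

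The rhythm itself differed between genotypes for 2 members, Nampt and Nmrk1, where 0.629% of all genes (81) were called and 3 members had an unadjusted p under 0.05. For Nampt the peak-to-trough differed by -0.39 (KO minus WT) and the fitted peak moved from 14.3 to 9.90 ± 1.09 h (SE; limma adjusted p = 0.0263). For Nmrk1 the peak-to-trough differed by -0.30 and the fitted peak moved from 14.4 to 4.31 ± 1.47 h (adjusted p = 0.035). Each p is of the limma F test of the cosine and sine terms together. Neither the change in peak-to-trough nor that in peak time was tested alone. The KO rhythm itself was not called for either gene, so their KO peaks are fitted values alone. The Nampt call was lost without KO ZT4 B, WT ZT4 A, WT ZT4 B, WT ZT16 A or WT ZT16 B (adjusted p 0.0526 to 0.0766) and with time as a 6-level factor (0.221). It held without the libraries labelled KO ZT4 A and KO ZT12 A (0.00123). The Nmrk1 call was lost without those (0.0697) and without any 1 of 11 libraries, KO ZT4 B, KO ZT8 B, KO ZT12 A, KO ZT12 B, KO ZT16 A, WT ZT4 A, WT ZT4 B, WT ZT12 A, WT ZT12 B, WT ZT16 A and WT ZT16 B (0.0506 to 0.0886). That call was also lost without the trend and robust options of limma (0.0519) and with no filter on low values (0.0717).

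Ranked over the 12 groups of genotype and time, Nampt ran from 39.3 TPM in WT ZT16 through WT ZT12 (37.6), WT ZT20 (31.6), WT ZT8 (31.5), KO ZT12 (30.8), KO ZT8 (27.8), KO ZT4 (26.7), WT ZT0 (26.6), KO ZT16 (25.1), KO ZT20 (24.9) and WT ZT4 (24.8) to 24.6 TPM in KO ZT0. Of the 11 neighbouring pairs in that order, 9 overlapped in their libraries, and the gaps lay between WT ZT12 and WT ZT20 and between KO ZT12 and KO ZT8. The second of these gaps was only that between 28.4137 TPM in KO ZT12 B and 28.4129 TPM in KO ZT8 A. Nmrk1 ran from 59.1 TPM in WT ZT16 through WT ZT12 (54.3), WT ZT8 (51.0), WT ZT0 (45.6), WT ZT20 (44.8), KO ZT4 (44.7), KO ZT8 (40.7), KO ZT20 (36.6), KO ZT0 (35.8), KO ZT16 (35.2) and WT ZT4 (33.8) to 33.3 TPM in KO ZT12, with 7 of 11 pairs overlapping. For Nadk all 6 WT groups, from 73.2 TPM at ZT0 to 62.6 TPM at ZT8, ranked above all 6 KO groups, from 59.7 TPM at ZT4 to 45.5 TPM at ZT12, with 10 of 11 pairs overlapping. For the other 7 members at least 10 of 11 neighbouring pairs overlapped. Their highest and lowest groups were KO ZT0 (9.53 TPM) and KO ZT8 (7.82) for Nmnat1, KO ZT0 (12.2) and WT ZT16 (7.77) for Nmnat3, KO ZT8 (19.2) and WT ZT20 (13) for Naprt, KO ZT8 (37.9) and KO ZT12 (27.7) for Qprt, KO ZT0 (46.7) and WT ZT4 (33.1) for Nnt, KO ZT12 (7.78) and WT ZT16 (5.70) for Sirt1, and KO ZT8 (62.7) and WT ZT20 (46.8) for Sirt3.

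At the level of transcripts, Nampt and Naprt had 1 each in the table. Nmrk1-203, a coding transcript, held 68.1% of Nmrk1 in WT and 69.5% in KO, and Nmrk1-201 held 16.7% and 13.2%. Nadk-201 and Nadk-203, both coding, held 53.1% and 27.4% of Nadk in WT and 53.4% and 25.8% in KO. Both were lower in KO, at 28.8 ± 2.97 against 35.3 ± 3.38 TPM and at 14 ± 2.65 against 18.3 ± 2.78 TPM (SD, n = 12 each, not tested). Qprt-201 held 97.5% of Qprt and Sirt3-202 held 75.1% of Sirt3 in WT. The largest share of Sirt1, 40.4% in WT and 38.5% in KO, was Sirt1-205, annotated as a target of nonsense-mediated decay, ahead of the coding Sirt1-201 at 27.5% and 32.0%. Shares between transcripts of a gene are estimates, since reads that fit several are divided among them. Some members overlap other genes, Naprt with Eef1d (88.2 TPM) on the same strand and Sirt3 with Psmd13 (50.3 TPM) and Ric8a (16.2 TPM) on the opposite strand, and whether counting used the strand is not given in the sources used here.

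The genes closest in pattern were found as the highest Pearson correlations on the log2 scale over the 24 libraries, which share genotype, time and library with the member, and are given as a description. For Nampt they were Wee1 (0.953), Tspan4 (0.917) and Bnip3 (0.874), the same genes as over the 12 group means. For Nmrk1 they were Lonrf1 (0.893), Slc9a3r1 (0.858) and Prss8 (0.833), and over the group means Gm12501 (0.953), Lonrf1 (0.923) and Coa6 (0.910). For Naprt they were Mri1 (0.895), Elmo3 (0.869) and Klf1 (0.861), and over the group means Trex1 (0.951), Polg2 (0.943) and Ttc38 (0.940).

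Around the members, the wider pathway was described by lists of known genes, with calls from the same tests. Of the salvage and Preiss-Handler list (Nampt, Nmrk1 and Naprt included), 9 of 11 genes were tested, 3 higher and 3 lower in KO, with a median of -0.01 where all genes had 0.15. Of these 9, 7 were rhythmic in WT, none in KO, and 2 differed in rhythm, both of them members. The shares of all genes were 50.9% higher, 10% lower, 13.7% rhythmic in WT, 3.64% in KO and 0.629% differing in rhythm. The WT-rhythmic genes outside the members were Pnp, which releases nicotinamide from its riboside (0.67 ± 0.10 SE, peak at 0.772 h), Nt5e, an ectonucleotidase (1.45 ± 0.19, peak at 22.3 h), Nadsyn1, the last enzyme of the nicotinic acid route (0.48 ± 0.12, peak at 10.5 h), and the nucleotidase Nt5c2 (0.39 ± 0.10, peak at 8.83 h). Their limma adjusted p-values were 0.000325, 0.00019, 0.0221 and 0.0258. Nt5c2 was also lower in KO (-0.16 ± 0.05 SE; adjusted p = 0.00974) and Pnp higher (0.15 ± 0.06; adjusted p = 0.0292). Under median-of-ratios scaling none of the list was called higher and 5 were lower. Nmrk2 and Nmnat2 had a mean under 1 TPM and were not tested.

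Of the de novo route from tryptophan, 9 of 11 genes were tested, 3 higher and 2 lower in KO, with a median of -0.07. Over all genes 50.9% were called higher and 10% lower. Kynu, which cleaves hydroxykynurenine, was higher in KO, at 10.4 ± 3.63 TPM (SD, n = 12) against 2.56 ± 0.854 TPM in WT (1.91 ± 0.20 SE; limma adjusted p = 5.32e-07). Kyat1, which diverts kynurenine to kynurenic acid, fell from 50.0 ± 10.5 to 28.8 ± 4.80 TPM (-0.78 ± 0.08; adjusted p = 6.26e-07). Afmid, the formamidase upstream of kynurenine, fell from 41.9 ± 7.21 to 27.8 ± 6.62 TPM (-0.61 ± 0.12; adjusted p = 0.000236), and the hydroxylase Kmo rose from 44.4 ± 3.76 to 54.2 ± 9.33 TPM (0.27 ± 0.07; adjusted p = 0.00345). Acmsd, which draws an intermediate away from quinolinate before Qprt, was chosen after its values were seen. It was rhythmic in both genotypes, with a peak-to-trough of 1.75 ± 0.23 in WT (peak at 0.734 h, adjusted p = 0.000195) and 1.48 ± 0.23 in KO (0.84 h, adjusted p = 0.0049). Under median-of-ratios scaling 1 gene of the route was higher and 3 were lower. Tdo2 and Ido1 had a mean under 1 TPM.

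**Figure D5:**
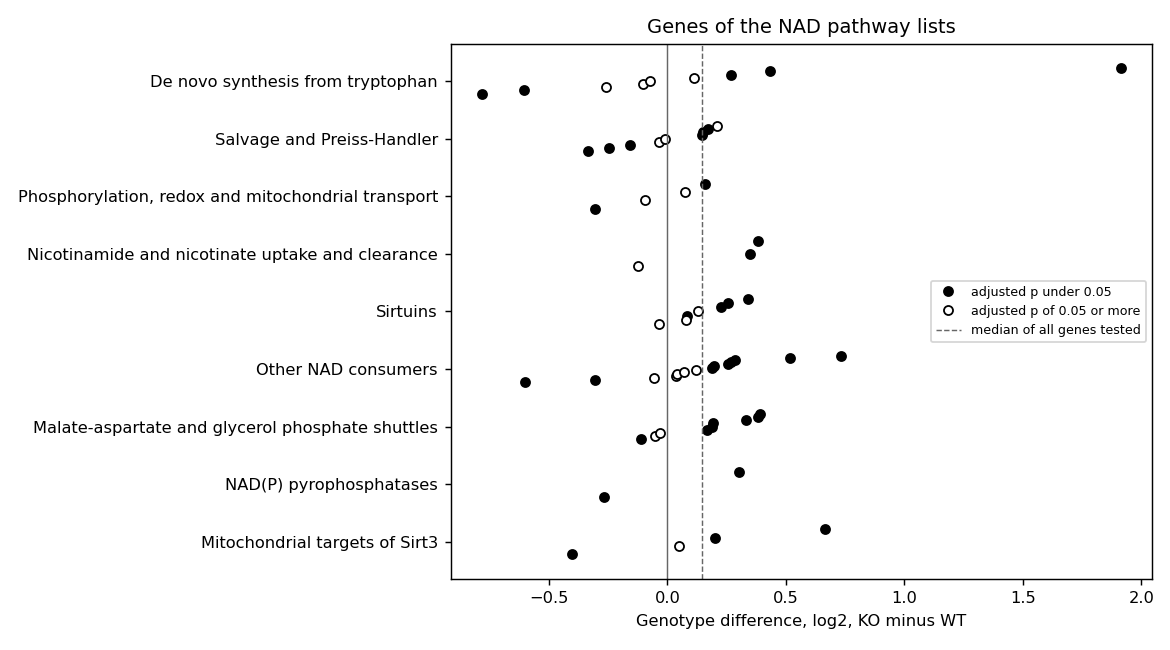
Genotype difference (x axis, log2, KO minus WT) of every tested gene of 9 pathway lists (rows), filled where the adjusted p was under 0.05; the dashed line is the median of all genes, 0.15. The salvage genes lie between -0.34 and 0.21, while single genes of other lists lie far out, such as Kynu at 1.91.

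Of the 7 sirtuins, 4 were higher in KO, against 50.9% of all genes, none was lower, and none was rhythmic in WT or KO or differed in rhythm, with a median of 0.13. In WT 2 were called rhythmic with the mitochondrial genome's transcripts left out of the total and 1 under median-of-ratios scaling, and 1 in WT and 1 in KO without the libraries labelled KO ZT4 A and KO ZT12 A. Sirt2, mainly a cytosolic deacetylase, was at 39.2 ± 1.38 TPM (SD, n = 12) in WT and 46.0 ± 2.83 TPM in KO (0.23 ± 0.03 SE; limma adjusted p = 1.29e-05). Sirt5, a mitochondrial desuccinylase, was at 6.74 ± 0.761 and 8.55 ± 0.816 TPM (0.34 ± 0.06; adjusted p = 3.67e-05), and the nuclear Sirt6 at 4.01 ± 0.468 and 4.80 ± 0.477 TPM (0.26 ± 0.06; adjusted p = 0.00129). All 3 were higher at 6 of 6 times. The nucleolar Sirt7 was at 27.1 ± 2.51 and 26.5 ± 2.03 TPM (adjusted p = 0.512). Under median-of-ratios scaling 2 sirtuins were called higher and 1 lower.

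For phosphorylation, redox and mitochondrial transport, 4 of 5 genes were tested, with Nadk lower and Nadk2 higher. The shares of all genes were 50.9% higher and 10% lower, with a median difference of 0.15, for this list and the next. Nadk2, the mitochondrial NAD kinase, was at 31.4 ± 2.83 TPM (SD, n = 12) in WT and 35.1 ± 2.86 TPM in KO (0.16 ± 0.04 SE; limma adjusted p = 0.00374), so the 2 NAD kinases had opposite signs on the deposited scale. Under median-of-ratios scaling no gene of this list was called higher. The mitochondrial NAD carrier Slc25a51 was at 62.7 ± 4.25 and 58.8 ± 5.34 TPM (adjusted p = 0.068). Of 3 tested genes of uptake and clearance, Slc22a13, a kidney carrier of organic anions that takes nicotinate, was higher (39.8 ± 6.15 and 51.9 ± 7.18 TPM; adjusted p = 0.00134), Slc12a8 was higher (1.37 ± 0.210 and 1.79 ± 0.397 TPM; adjusted p = 0.00604), and Slc5a8 was not called (adjusted p = 0.168). Under median-of-ratios scaling 1 of these 3 was higher and 1 lower, where 2844 and 2856 of all 12874 genes were.

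Among 14 tested genes of other NAD consumers, 7 were higher, against 50.9% of all genes, and 2 lower, against 10%. Their median was 0.16. Parp2, which marks DNA breaks, was at 5.23 ± 0.623 TPM (SD, n = 12) in WT and 7.55 ± 0.918 TPM in KO (0.52 ± 0.07 SE; limma adjusted p = 2.93e-06), and Parp1 at 12.1 ± 0.834 and 14.6 ± 1.42 TPM (0.27 ± 0.05; adjusted p = 0.000314). Bst1, an ectoenzyme that cleaves NAD, was at 5.23 ± 1.01 and 8.75 ± 1.56 TPM (0.73 ± 0.10; adjusted p = 1.05e-05). Parp10 was lower, at 13.7 ± 3.71 and 8.93 ± 2.09 TPM (-0.60 ± 0.10; adjusted p = 6.03e-05). Under median-of-ratios scaling 3 were higher and 3 lower.

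Of the 9 genes of the malate-aspartate and glycerol phosphate shuttles, which carry the electrons of NADH into mitochondria, 6 were higher and 1 lower, with a median of 0.19 (3 and 3 under median-of-ratios scaling). Over all genes 50.9% were called higher and 10% lower, with a median of 0.15. The mitochondrial Got2 was at 107 ± 3.66 TPM (SD, n = 12) in WT and 140 ± 12.3 TPM in KO (0.39 ± 0.04 SE; limma adjusted p = 1.01e-06), with Mdh2, Slc25a11 and Mdh1 higher by 0.19, 0.17 and 0.19. The NAD(P) pyrophosphatases Nudt13 and Nudt12 were called in opposite directions (0.30 and -0.27; adjusted p = 2.68e-05 and 0.00106). Among known protein targets of Sirt3, Glud1 (185 ± 15.3 and 296 ± 42.2 TPM; adjusted p = 4.66e-07) and Idh2 (0.20; adjusted p = 6.58e-05) were higher and Acadl was lower (-0.40; adjusted p = 0.000188). Under median-of-ratios scaling 1 gene of that list was higher and 2 were lower. On the deposited scale with all libraries, the lists of uptake, sirtuins and pyrophosphatases had no rhythm call in either genotype.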

How the data were processed

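Polyadenylated kidney RNA was measured in 24 libraries. The authors deposited TPM per transcript, made with kallisto 0.42.4 and the build GRCm38 (mm10) per the submitters' processing notes; the index is not given in the sources used here. In the deposited table all libraries sum to the same TPM (999999 to 1000001), so depth is unknown. Contact files of the same series were not used here. Of 88198 transcripts, 86119 were matched by Ensembl identifier without version to GENCODE M21 and summed per gene; the others held 1.35% to 2.24% of TPM per library.

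Values were analysed as log2(TPM + 0.1), which understates fold changes of low genes, for the 12874 genes averaging at least 1 TPM. limma 3.58.1 in R 4.3.3 (trend and robust options) gave every test, fitted on the whole table with Benjamini-Hochberg adjustment over it and a threshold of 0.05: the genotype coefficient with time as a factor, F tests of a 24-hour cosine and sine per genotype and of their difference, and genotype contrasts at each time. Contrasts at 1 time share the spread of all 12 groups. The tests were first tested on simulated data. Groups came from the labels alone. The text names all members, and per pathway list up to 4 genes with the smallest p in the genotype difference or the difference in rhythm. The members and lists were chosen with earlier results of these data known. Alternatives covered the pseudocount, filter, scaling, model, replicate block and each library left out in turn; the set without the libraries labelled KO ZT4 A and KO ZT12 A was chosen after seeing the data. For 1 gene of the list of Sirt3 targets the result is not reported here.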

Additional observations from a re-analysis of the deposited data

Results flagged for a closer look

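The rhythm of Nampt and of Nmrk1 differed between WT and KO by a test of the difference itself, the limma F test of the genotype difference in the cosine and sine terms. The call held in 28 of 34 alternatives for Nampt and in 20 of 34 for Nmrk1. The adjusted p was 0.0263 for Nampt, with a peak-to-trough of 0.67 ± 0.08 (SE) in WT and 0.28 ± 0.08 in KO, and 0.035 for Nmrk1, with 0.61 ± 0.12 in WT and 0.31 ± 0.12 in KO. At ZT16 all libraries of both genes were higher in WT than in KO, and at ZT4 the KO mean was the higher one, a direction that for Nampt turned without KO ZT4 B and under median-of-ratios scaling.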

How the results depend on the processing

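Nampt, Nmrk1 and Nadk were called lower in KO in all 34 alternatives. Under median-of-ratios scaling the difference of Naprt was -0.000779 and that of Sirt3 -0.0668, both without a call. Without time in the model, or scaled without the mitochondrial genome's transcripts, 3 members were called between genotypes. Members rhythmic in WT numbered 5 with each genotype fitted alone and 5 without the libraries labelled KO ZT4 A and KO ZT12 A. Members rhythmic in KO numbered 0 with each genotype fitted alone, under median-of-ratios scaling, with no filter and with time as a 6-level factor, 2 at a mean of at least 5 TPM and 4 without those libraries. Members that differed in rhythm numbered 1 with no filter, with plain eBayes, with time as a factor and without those libraries. By time, members called numbered 2 at ZT0 and 2 at ZT20 under median-of-ratios scaling, 1 at ZT20 without mitochondrial transcripts, 0 at ZT8 with no filter, and 3 at ZT0, 2 at ZT4 and 1 at ZT20 without those libraries. Over all genes, calls of rhythm in WT numbered 2843 with genotypes fitted alone and 576 with time as a factor, in KO 12, 28 and (no filter) 295, and of the difference 23 with time as a factor and 43 with no filter. Under median-of-ratios scaling 586 of all genes were rhythmic in KO, against 468 in the main analysis. By time, the counts over all genes at ZT0 and ZT20 under median-of-ratios scaling were within a ratio of 1.5 of the main ones. So were those at ZT20 without mitochondrial transcripts and at ZT8 with no filter. The cause of the changes above was not tested.

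Leaving out each library in turn gave 4 to 7 members between genotypes, 3 to 4 rhythmic in WT, 0 to 3 in KO and 0 to 2 differing in rhythm, and by time 0 to 2 at ZT0, 0 to 1 at ZT4, 0 to 2 at ZT8, 2 to 4 at ZT12, 2 to 3 at ZT16 and 0 to 1 at ZT20. Over all genes the ranges were 7410 to 8101, 1194 to 2140, 272 to 626 and 37 to 112 for those 4 tests, and by time 1 to 2399 at ZT0, 0 to 1488 at ZT4, 74 to 2411 at ZT8, 2130 to 5354 at ZT12, 569 to 3281 at ZT16 and 1 to 1103 at ZT20. Without the libraries labelled KO ZT4 A and KO ZT12 A, they were 2725 at ZT0, 1894 at ZT4, 2882 at ZT12 and 1243 at ZT20.

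The replicate letters were not taken as pairs. Over 66 pairs of groups, the deviations of libraries with the same letter correlated at -0.32 to 0.34 (median 0.02), with 21 over 0.1. Within KO, library B was above library A at all 6 times for Nmrk1, Nnt and Sirt3 and at 5 for Sirt1. Within WT, it was above at 4 of 6 times for Nmrk1 and Nnt, at 1 for Sirt3 and Qprt and at 5 for Sirt1. With the replicate block 5 members were called between genotypes, Nmnat3 being lost (adjusted p = 0.0544), and 4 at ZT12; the numbers in WT (3), KO (1) and the difference (2) were those without it, and over all genes they were 7873, 1842, 525 and 76. Depth is unknown in TPM, so counting error could not be set beside any level. With 2 libraries a group, contrasts at 1 time rest on the spread shared by all groups.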
